A study of Rattus norvegicus with 99 samples.

Results

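Transcripts of the 3 transforming growth factor beta (TGF-beta) ligands, Tgfb1, Tgfb2 and Tgfb3, of the 4 latent TGF-beta binding proteins, Ltbp1, Ltbp2, Ltbp3 and Ltbp4, and of Fbn1, the microfibril protein fibrillin-1, were followed through the ventricles of pressure-overloaded rats. The 8 genes were taken by symbol from a table of 17337 genes, each was found there, and each was tested in every comparison. They were taken by name, with no threshold on their values, but with earlier results of these data known. In the left ventricle that failed upon aortic banding, Ltbp2 was 12-fold, Tgfb2 3.83-fold and Ltbp3 1.40-fold higher than in age-matched shams, while Tgfb1, Tgfb3, Ltbp1, Ltbp4 and Fbn1 did not pass the test. There 0.837% of all genes tested passed. Ltbp2, Tgfb2 and Ltbp3 each failed to pass in 5 of 7 omissions of 1 library. In the septum of the same hearts Tgfb2 was the only member to pass, at 2.73-fold, where 0.232% of all genes passed. No member passed in the failing right ventricle upon pulmonary artery banding or at the earlier stage of hypertrophy, and 0% of all genes passed there in the same test. In that right ventricle, with 3 rats against 2 shams, the log2 fold changes were 2.58 ± 0.98 (SE) for Ltbp2 and 1.54 ± 0.60 for Tgfb2.

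TGF-beta is secreted as a latent complex, in which the dimeric ligand stays bound to its own propeptide. Ltbp1, Ltbp3 and Ltbp4 hold this complex in the extracellular matrix by a disulfide bond, whereas Ltbp2 shares their domain structure but does not bind the latent ligand. The LTBPs attach to fibrillin microfibrils, from which integrins and proteases can release the ligand. In the heart, TGF-beta is known for turning fibroblasts into matrix-producing myofibroblasts.

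The study used 33 male F1 rats from Wistar Kyoto mothers and Lewis fathers, and each heart was divided into its left ventricle (LV), its right ventricle (RV) and the septum between them (Spt), with 1 library per piece and 99 in all. A clip that did not constrict when it was set loaded the RV when it sat on the pulmonary artery (PAB) and the LV when it sat on the aorta (AOB), and shams had no banding. At the hypertrophy stage (H), Sham-H, AOB-H and PAB-H held 7 animals each, aged 11 weeks and 7 weeks after surgery. At heart failure (F), 3 PAB-F and 2 Sham-RF rats were 27 weeks old and 21 weeks after surgery, and 4 AOB-F and 3 Sham-LF rats were 30 weeks old and 24 weeks after surgery. These ages and times are those of the sample labels, and the study's text gives others. The tissue was taken whole and no cells were sorted, so fewer cells of a type and less RNA per cell cannot be told apart in any value below.

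Start regions of Ltbp2, Tgfb2 and Ltbp1 are shown because Ltbp2 and Tgfb2 varied together over the libraries and Ltbp1 against them. The sequences run 5′ to 3′ on the gene's strand, from 250 bases before to 50 bases after the RefSeq transcript start in the rat build GRCr8, and 8 of 8 members were found in RefSeq. The counts themselves were made on another build, so no coordinates were carried between them. Capitals mark CAGAC or its reverse complement GTCTG, the letters of a Smad binding element, the DNA motif of the transcription factors downstream of TGF-beta receptors. Ltbp2 lies at chr6:110257249-110257548 on the minus strand, Tgfb2 at chr13:100792636-100792935 on the minus strand and Ltbp1 at chr6:26177252-26177551 on the minus strand.
Ltbp2: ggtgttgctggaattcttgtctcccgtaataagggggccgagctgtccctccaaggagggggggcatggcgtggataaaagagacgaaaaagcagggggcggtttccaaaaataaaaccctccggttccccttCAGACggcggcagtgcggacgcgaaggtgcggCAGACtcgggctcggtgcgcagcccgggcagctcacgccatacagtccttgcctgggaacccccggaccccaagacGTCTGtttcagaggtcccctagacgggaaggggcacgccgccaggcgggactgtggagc
Tgfb2: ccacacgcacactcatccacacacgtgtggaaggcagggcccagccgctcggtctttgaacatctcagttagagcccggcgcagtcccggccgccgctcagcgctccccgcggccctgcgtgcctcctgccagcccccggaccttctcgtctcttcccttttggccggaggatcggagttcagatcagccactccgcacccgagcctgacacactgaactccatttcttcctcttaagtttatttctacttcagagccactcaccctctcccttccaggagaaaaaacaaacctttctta
Ltbp1: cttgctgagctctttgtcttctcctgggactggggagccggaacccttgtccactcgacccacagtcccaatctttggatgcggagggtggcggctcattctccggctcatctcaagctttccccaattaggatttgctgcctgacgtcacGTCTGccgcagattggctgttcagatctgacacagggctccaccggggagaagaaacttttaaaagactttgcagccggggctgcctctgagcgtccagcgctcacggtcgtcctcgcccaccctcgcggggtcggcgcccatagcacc
The Ltbp2 window held 3 matches, those of Ltbp1 and Fbn1 held 1 each, and the windows of Tgfb1, Tgfb2, Tgfb3, Ltbp3 and Ltbp4 held none. Such a match is common, as 50.1% of 33469 rat promoter windows of the same length held at least 1 on either strand. The AP-1 motif TGANTCA (7.33% of windows), the TEAD motif GGAATG (14.2%) and the CArG box bound by serum response factor (1.64%) were searched on both strands and matched in none of the 8 windows. These are matches of letters, and no binding was measured.

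Library totals ranged from 12.1 to 24.2 M (mega) counts, with a median of 17.4 M. Over 50 genes chosen in these libraries for differing between LV and RV, 30 of 33 animals separated in the same direction and 3 in the opposite one (Sham-H replicate 6, AOB-H replicate 1 and PAB-H replicate 2). The LV and RV libraries of these 3 animals go against their labels, so AOB-H values of Ltbp2 and the sham chamber comparisons are given with and without them. No values without all 3 are given for PAB-H or for the interactions with stage. Myl7, an atrial myosin light chain, had a median of 10.5 CPM (counts scaled to 1 M per library) and exceeded 100 CPM in 15 of 99 libraries, up to 1130 CPM. The share of atrial tissue in the results was tested nowhere except by leaving out single libraries. The labels place the libraries in 3 numbered series. In LV and RV, all libraries of the failure stage and their shams belong to the same series, and so do those in Spt, so that the failure comparisons lie within 1 series.

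Per transcript length, Ltbp4 was the most abundant member and Ltbp2 the least. The deposited FPKM, which divides by transcript length and so allows genes to be compared, had a median over 99 libraries of 121 for Ltbp4 (range 85.3 to 156). Among the ligands, the FPKM medians were 32.3 for Tgfb1 (18.8 to 49.5), 25.2 for Tgfb3 (14.9 to 36.7) and 5.14 for Tgfb2 (2.89 to 37.9). The other binding proteins stood at a median FPKM of 17.2 for Ltbp3 (13.1 to 24.8), 9.2 for Ltbp1 (3.92 to 18.8) and 1.08 for Ltbp2 (0.35 to 18.4), and Fbn1 at 5.61 (2.15 to 12.5). The rarest members thus had the widest ranges. In CPM, the highest library exceeded the lowest 52.2-fold for Ltbp2 and 13.1-fold for Tgfb2, but only 1.86-fold for Ltbp4 and 1.88-fold for Ltbp3. Counting error weighs most on Ltbp2, which had between 37 and 1737 counts per library, while Tgfb2 had between 131 and 1443 and Ltbp4 between 5440 and 18044. Within a group of 1 condition and 1 chamber, the median coefficient of variation was 44.2% for Ltbp2, 24.1% for Fbn1, 18.5% for Tgfb2 and 8.08% for Ltbp3.

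**Figure D1:**
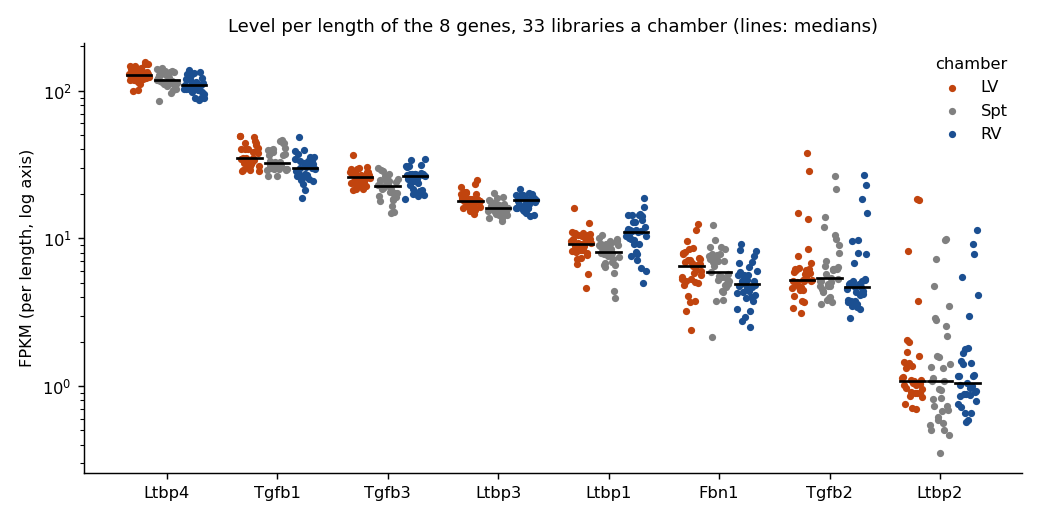
Deposited FPKM (log axis) of the 8 genes in the 33 libraries of each chamber, with points for libraries and lines for medians. Ltbp4, with a median of 121 over all libraries, lies above every other member, and Ltbp2, with a median of 1.08, spreads the most.

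Ordered by mean CPM over the 21 groups of condition and chamber, AOB-F LV was the highest group for 6 members (Tgfb1, Tgfb2, Ltbp2, Ltbp3, Ltbp4 and Fbn1). For Ltbp2, mean CPM ran from 68.0 in AOB-F LV to 4.61 in Sham-RF Spt. For Tgfb2, it ran from 64.0 in AOB-F LV to 11.8 in Sham-H RV. Ltbp1 had the reverse order at its low end, with 110.1 CPM in Sham-RF RV at the top and 40.9 in AOB-F LV and 32.5 in AOB-F Spt at the bottom. Fbn1 means ran from 29.3 to 79.9 CPM. The remaining means spanned less, from 42.2 to 66.4 CPM for Tgfb1, 46.7 to 74.6 for Tgfb3, 62.0 to 95.7 for Ltbp3 and 513 to 718 for Ltbp4. Neighbouring groups in these orders overlapped in all 20 pairs for 7 members, and for Ltbp1 in 19 of 20, the exception being Sham-RF RV above Sham-LF RV at 83.8 CPM.

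The comparison of AOB-F with Sham-LF in LV asked which genes differ in the chamber that failed under its own load. Of the 11703 genes tested there, 98 or 0.837% passed an adjusted p of 0.05 in edgeR's quasi-likelihood test (Benjamini-Hochberg), against 3 of the 8 members, and these 3 were higher. The members were chosen with earlier results of these data known, so the shares are set side by side as a description. DESeq2 passed 245 genes and the same 3 members. At an unadjusted p under 0.05 stood 1486 genes and 6 of 8 members. The median log2 fold change was 0.41 over the members and 0.014 over all genes.

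Tgfb2, the ligand with the lowest level in shams, had 16.8, 15.9 and 17.8 CPM in the LV of the 3 Sham-LF rats and 109, 39.3, 24.9 and 82.6 CPM in the 4 AOB-F rats. Every failing library lay above every sham, but the failing libraries themselves differed widely, with replicates 1 and 4 far above the others. The log2 fold change was 1.94 ± 0.38 (SE, adjusted p = 0.0292, edgeR). Tgfb1, the most abundant ligand, also did not overlap, with 51.3, 56.5 and 49.8 CPM in shams and 71.1, 66.7, 65.5 and 62.3 in AOB-F, yet its change of 0.35 ± 0.16 missed the threshold (edgeR adjusted p = 0.361). Tgfb3 had 57.6, 64.4 and 62.0 CPM in shams and 66.6, 71.0, 59.9 and 79.8 in AOB-F, ranges that overlapped (0.19 ± 0.13, edgeR adjusted p = 0.657). In FPKM, the 3 ligands summed to 64.6 ± 3.14 in Sham-LF LV and 93.7 ± 16.2 in AOB-F LV (SD, n = 3 and 4), and the part made up by Tgfb2 was 9.01% in shams and 22.3% ± 10.5 in AOB-F. Tgfb1 remained the largest part, at 55.2% and 49.2% ± 7.98, a description with no test of its own.

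Ltbp2, a microfibril-associated protein outside the latent complex, had 6.63, 4.59 and 5.87 CPM in the Sham-LF LV and 119, 24.4, 10.5 and 118 CPM in the AOB-F LV. Again all failing libraries exceeded all shams, with replicates 1 and 4 about an order of magnitude above replicate 3. Its log2 fold change of 3.58 ± 0.68 was the largest of the members (adjusted p = 0.0292, edgeR, 95% interval 2.24 to 4.92). Ltbp3, which carries the latent ligand, had 65.1, 73.0 and 68.6 CPM in shams and 103, 88.3, 82.1 and 109 in AOB-F. The groups did not overlap, and the change of 0.48 ± 0.11 passed (edgeR adjusted p = 0.0330), with libraries of each group close together. Ltbp1, another carrier, pointed the other way, with 56.2, 59.7 and 64.1 CPM in shams and 28.9, 50.1, 49.1 and 35.7 in AOB-F. Its lowest libraries were replicates 1 and 4, those with the most Ltbp2 and Tgfb2, and the difference of -0.54 ± 0.20 did not pass (edgeR adjusted p = 0.19). Ltbp4, the most abundant carrier, had 646, 683 and 623 CPM in shams and 641, 811, 791 and 627 in AOB-F (0.15 ± 0.12, edgeR adjusted p = 0.746). Its libraries overlapped, and the 95% interval of the difference was -0.09 to 0.39. Of the FPKM of the 4 LTBPs, Ltbp4 held between 74.6% and 83.6% in every group, while Ltbp2 went from 0.582% ± 0.122 in Sham-LF LV to 6.10% ± 5.40 in AOB-F LV (0.892% to 10.8%) and Ltbp1 from 6.32% ± 0.558 to 3.66% ± 0.774.

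Fbn1, the backbone of the microfibril, had 45.6, 34.0 and 55.0 CPM in Sham-LF LV and 103, 59.4, 45.1 and 112 CPM in AOB-F LV. Replicates 1 and 4 were again the highest, but replicate 3 lay within the shams, and the change of 0.84 ± 0.35 did not pass (edgeR adjusted p = 0.281). In all, the groups did not overlap for 5 of 8 members (Tgfb1, Tgfb2, Ltbp1, Ltbp2 and Ltbp3), against 11.9% of all genes tested.

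The 3 calls in the failing LV rested on few animals. They held without AOB-F replicate 2 or 3, and were lost when AOB-F replicate 1, AOB-F replicate 4 or a Sham-LF rat (each of the 3) was left out. Over these omissions the log2 fold change ran from 3.17 to 3.94 for Ltbp2 (edgeR adjusted p 0.000998 to 0.19), from 1.55 to 2.20 for Tgfb2 (0.000998 to 0.19) and from 0.41 to 0.55 for Ltbp3 (0.00335 to 0.208). Without AOB-F replicate 1, which had the highest Tgfb2, Ltbp2 stood at 3.17 ± 0.68 with an edgeR adjusted p of 0.19. Fitted with the 7 libraries of the groups alone, none of the 3 passed (edgeR adjusted p = 0.344 for each). AOB-F replicate 4 also had 264 CPM of Myl7, against 5.68, 18.2 and 21.7 in the other AOB-F LV libraries, and without it Ltbp2 was likewise at 3.17 ± 0.68 (edgeR adjusted p = 0.154). The 3 animals with doubtful LV and RV labels are in neither group, and the same 3 members passed without them.

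**Figure D2:**
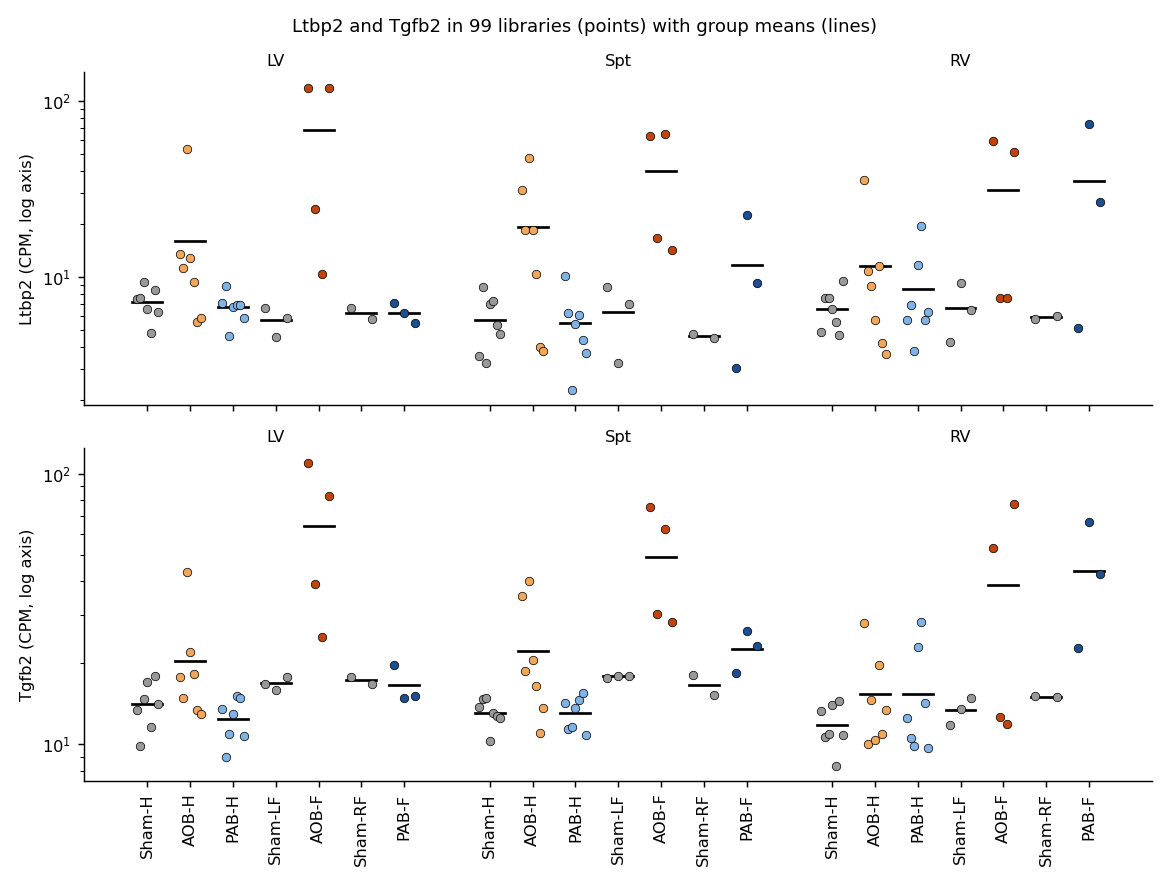
CPM (log axis) of Ltbp2 and Tgfb2 in each of the 99 libraries, by condition and chamber, with lines for group means. The 4 AOB-F LV libraries range from 10.5 to 119 CPM for Ltbp2 and from 24.9 to 109 CPM for Tgfb2, all above the Sham-LF LV libraries.

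Summed markers of cell types were read in the same libraries, and some sums differed between the groups while others did not. Over its listed genes, the cardiomyocyte sum was 38585 to 51095 CPM in AOB-F LV and 52510.4 to 64501 in Sham-LF LV, with 1 of 5 genes higher. The fibroblast sum was 2725 to 3259 CPM against 2378 to 2581, with 4 of 6 genes higher, and the macrophage sum 216 to 318 against 163 to 233, with 5 of 5 higher. The endothelial sum was 721 ± 172 CPM (SD) against 734 ± 12.8, the smooth muscle sum 248 to 380 against 291 to 347 and the atrial sum 31.9 to 542 against 24.5 to 46.9, with the atrial gene Bmp10 at 0 in the Sham-LF LV. The adipocyte sum was 737 to 1191 CPM against 876 to 1214, with 3 of 4 genes higher. The mesothelium sum was 28.5 to 73.6 CPM against 26.5 to 32.9, with 3 of 3 higher. No single marker of the cardiomyocyte, fibroblast or macrophage lists passed the test, and the part of cell type shifts in the members' values was not tested.

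Genes around the pathway were read from 6 lists, for which 60 of 66 symbols were in the table. The lists, too, were chosen with earlier results of these data known, so their counts are a description. They share genes with the cell type markers. Col1a1 of the textbook targets and Dcn of the proteins that bind the ligand are also fibroblast markers, and the target Acta2 is also a smooth muscle marker. In the failing LV upon AOB, 5 of their genes passed the test and all 5 were higher, against 0.837% of all genes. Among proteins that bind or restrain the ligand, 2 of 7 passed, with a list median of 0.34. They were biglycan (Bgn), a matrix proteoglycan, at 559 CPM against 236 (1.25 ± 0.26, edgeR adjusted p = 0.0320) and Cilp, a matrix protein that binds TGF-beta, at 44.7 CPM against 8.06 (2.48 ± 0.51, 0.0320). Among 12 textbook targets 2 passed, the median was 0.67, and 7 were under an unadjusted p of 0.05. These were Ctgf, a matricellular growth factor partner, at 523 CPM against 102 (2.37 ± 0.50, edgeR adjusted p = 0.0320), and periostin (Postn), a matrix protein of activated fibroblasts, at 87.7 CPM against 8.23 (3.42 ± 0.80, 0.0352). In the microfibril and elastic fibre list 1 of 10 passed, the crosslinking enzyme Loxl1 at 1.42 ± 0.31 (edgeR adjusted p = 0.0328), and the median was 0.35. No receptor of 5 (median 0.09), no activator or handler of the latent complex of 14 and none of 9 Smads and regulators (median 0.07) passed. The lowest adjusted p in these were 0.0628 for the integrin chain Itgb5 (0.30 ± 0.08), 0.0708 for the protease Mmp2 (0.40 ± 0.11) and 0.0738 for Pmepa1, a Smad-restraining membrane protein (0.78 ± 0.22), all by edgeR. In AOB-F Spt, AOB-F RV and PAB-F RV, 0 genes of the 6 lists passed.

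In the septum, which is shared by both ventricles, AOB-F differed from Sham-LF in 27 of 11624 genes or 0.232%, and in 1 of 8 members. Tgfb2 had 17.7, 18.0 and 17.9 CPM in Sham-LF Spt and 75.4, 30.4, 62.5 and 28.4 CPM in AOB-F Spt. The shams were nearly equal and all 4 failing septa lay above them, with a log2 fold change of 1.45 ± 0.33 (edgeR adjusted p = 0.0483). Ltbp2 had 8.73, 3.26 and 7.01 CPM in shams and 63.5, 16.7, 64.6 and 14.2 in AOB-F, also apart, but did not pass (2.61 ± 0.71, edgeR adjusted p = 0.105). Ltbp1 was lower in each failing septum, with 50.2, 43.4 and 45.7 CPM in shams against 27.6, 36.5, 24.7 and 41.2 (-0.53 ± 0.14, edgeR adjusted p = 0.0914). Ltbp3 had 66.8, 58.0 and 61.2 CPM against 83.3, 69.5, 76.0 and 71.6 (0.26 ± 0.10, edgeR adjusted p = 0.265) and Fbn1 39.7, 38.7 and 34.6 against 63.1, 43.8, 76.3 and 41.8 (0.56 ± 0.32, 0.498). For these 5 members the groups did not overlap, against 9.8% of all genes tested. Tgfb1 at 0.23 ± 0.13, Ltbp4 at 0.07 ± 0.13 and Tgfb3 at 0.00 ± 0.15 overlapped.

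The call of Tgfb2 in the septum lay close to the threshold. It held in 2 of 7 omissions of 1 library, with edgeR adjusted p between 0.00578 and 0.338 and log2 fold changes between 1.17 and 1.66. Without AOB-F replicate 4, which had the least Ltbp2, Ltbp2 (2.91, edgeR adjusted p = 0.027) and Ltbp1 (-0.64, 0.0147) passed beside it. DESeq2, with 147 genes passing, passed Tgfb2, Ltbp2 (2.66, adjusted p = 0.0211) and Ltbp1 (-0.51, 0.0449). The cardiomyocyte marker sum was 47067 to 56976 CPM in AOB-F Spt against 58903 to 72728, with 1 of 5 genes higher. The fibroblast sum was 1549.8 to 2096 CPM against 1587 to 2087, with 2 of 6 higher. The macrophage sum was 137 to 208 CPM against 109 to 136, with 5 of 5 higher, and their part in the result was not tested. High Ltbp2, Tgfb2 and Fbn1 with low Ltbp1 fell on AOB-F replicates 1 and 4 in LV and RV but on replicates 1 and 3 in Spt. In the study's sample sheet, Spt replicates 1 and 2 of AOB-F are swapped, which would place the high values on replicates 2 and 3, so which septum belongs to which AOB-F rat is not certain.

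In the RV of the same hearts, which was not banded, 0 of 11734 genes (0%) and 0 members passed in edgeR, while 1509 genes had an unadjusted p under 0.05 and DESeq2 passed 3 genes and 0 members. Ltbp2 had 4.28, 9.20 and 6.53 CPM in Sham-LF RV and 59.3, 7.56, 7.57 and 51.0 in AOB-F RV. The name of the column used for Sham-LF RV replicate 1 speaks of a PAB sham, so its group rests on the title and age of that sample. Here 2 rats had high and 2 had sham-like values, so the groups overlapped (2.25 ± 0.80, edgeR adjusted p = 0.344). Tgfb2 followed the same split, with 11.8, 13.6 and 14.9 CPM against 53.0, 12.6, 11.9 and 77.1 (1.54 ± 0.50, edgeR adjusted p = 0.328). Ltbp1 showed the reverse split, at 89.6, 91.2 and 70.7 CPM in shams and 39.3, 88.3, 82.4 and 31.1 in AOB-F (-0.45 ± 0.27, edgeR adjusted p = 0.451). Fbn1 had 22.4, 28.8 and 36.6 CPM against 62.2, 41.7, 33.3 and 68.2 (0.83 ± 0.33, edgeR adjusted p = 0.347). The cardiomyocyte sum was 47315 to 65425 CPM in AOB-F RV against 67241 to 73749, with 2 of 5 genes higher. The macrophage sum was 128 to 210 CPM against 135 to 159, with 5 of 5 genes higher, and their part was not tested. Fully separated groups occurred in 0 of 8 members and in 10.2% of all genes tested. Whether the effect of AOB-F differed between LV and RV was tested directly, and 0 of 11924 genes (0%) passed (286 at an unadjusted p under 0.05, 0 in DESeq2). For Ltbp2 the difference, LV minus RV, was 1.34 ± 1.01, and for Ltbp3 0.36 ± 0.15 (edgeR adjusted p = 0.926), in a fit that did not pair the chambers of the same rat.

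In the failing RV upon PAB, 3 animals were compared with 2. In edgeR 0 of 11734 genes (0%) and 0 members passed, DESeq2 passed 1 gene that is no member, and 982 genes were under an unadjusted p of 0.05. Ltbp2 had 5.81 and 5.98 CPM in Sham-RF RV and 5.15, 73.8 and 26.5 CPM in PAB-F RV. One failing RV was at the sham level and the others far above it, a log2 fold change of 2.58 ± 0.98 (edgeR adjusted p = 0.524). Without PAB-F replicate 2 it was 1.44 ± 0.94. Tgfb2 had 15.0 CPM in both shams and 22.8, 66.3 and 42.4 in PAB-F (1.54 ± 0.60, edgeR adjusted p = 0.526). Ltbp1 had 102 and 118 CPM in shams and 75.2, 37.5 and 64.6 in PAB-F (-0.90 ± 0.32, edgeR adjusted p = 0.524), the lowest value again in the animal with the most Ltbp2. For Tgfb2 and Ltbp1 the groups did not overlap, as was true of 35.4% of all genes tested in this comparison of 3 animals with 2. Of the FPKM of the 3 ligands, Tgfb2 made up 8.57% in Sham-RF RV and 19.7% ± 7.08 in PAB-F RV. The other members lay closer to shams, with log2 fold changes of 0.30 ± 0.38 for Fbn1, 0.16 ± 0.26 for Tgfb1, -0.02 ± 0.23 for Tgfb3 and -0.15 ± 0.17 for Ltbp4. PAB-F RV replicate 3 had 1855 CPM of the summed atrial markers, against 23.9 and 54.9 in the others, and without it Ltbp2 was at 2.76 ± 1.04 and Tgfb2 at 1.58 ± 0.65. The cardiomyocyte sum was 52624 to 61591 CPM in PAB-F RV against 63375 to 65570.4, with 2 of 5 genes higher. The fibroblast sum was 1701 to 2627 CPM against 2292 to 2302, with 2 of 6 higher. The macrophage sum was 116 to 229 CPM against 148 to 153, with 5 of 5 higher, and the part of these lists was not tested.

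**Figure D3:**
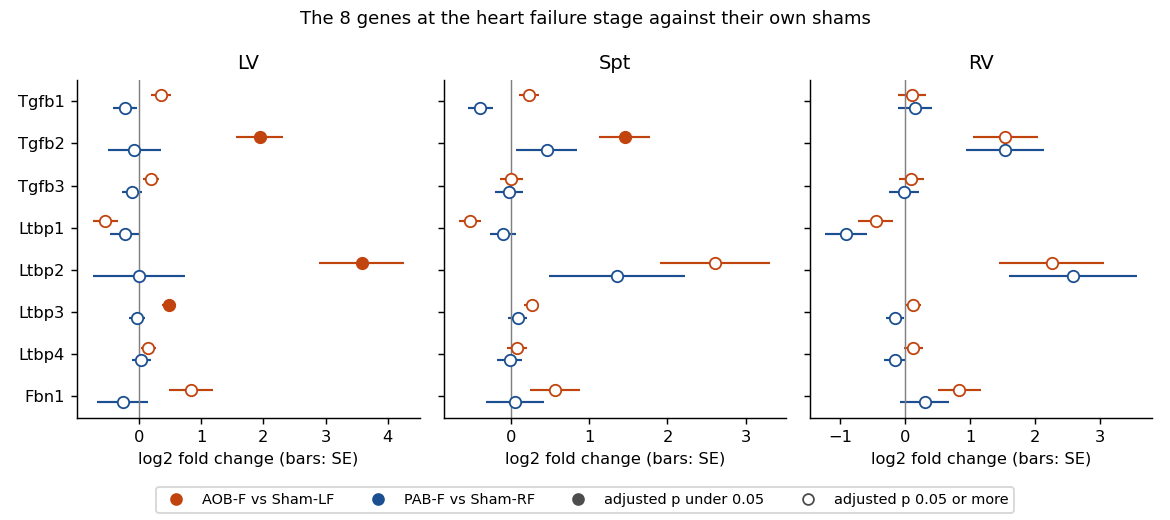
Log2 fold changes ± SE (edgeR) of the 8 genes at heart failure against age-matched shams, AOB-F in red and PAB-F in blue, in LV, Spt and RV, with filled points for an adjusted p under 0.05. The 4 filled points are Ltbp2, Tgfb2 and Ltbp3 in AOB-F LV and Tgfb2 in AOB-F Spt, and Ltbp1 lies below 0 in each panel.

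The other chambers of the PAB-F hearts gave 0 calls in edgeR. In LV, edgeR gave 0 of 11703 genes (0%) and DESeq2 0, with 122 genes under an unadjusted p of 0.05, and Ltbp2 had 7.08, 6.26 and 5.46 CPM against 6.69 and 5.80 in Sham-RF. In Spt, edgeR gave 0 of 11624 genes (0%) and DESeq2 0, with 481 genes under an unadjusted p of 0.05. Ltbp2 in Spt was 3.05, 22.6 and 9.21 CPM against 4.74 and 4.48 (1.35 ± 0.87, edgeR adjusted p = 0.816). The order of the 3 PAB-F rats, replicate 2 above 3 above 1, was the same in Spt and RV. Tgfb1 in Spt was 43.4, 43.0 and 43.1 CPM in PAB-F and 55.2 and 59.5 in Sham-RF, without overlap (-0.40 ± 0.16, edgeR adjusted p = 0.816). Of the members, Tgfb1 and Tgfb2 did not overlap in Spt, as was true of 42.7% of all genes tested in this comparison of 3 rats with 2. In LV, with the same rats, Fbn1 and Tgfb3 did not overlap, against 18.5% of all genes tested. Fitted with these 5 libraries alone, Tgfb1 had an edgeR adjusted p of 0.0144, among 792 genes that passed. A difference in the effect of PAB-F between RV and LV was not detected, as 0 of 11924 genes (0%) passed in edgeR (583 at an unadjusted p under 0.05, 1 gene in DESeq2). The differences, RV minus LV, were 2.59 ± 1.24 for Ltbp2 (edgeR adjusted p = 0.999) and 1.62 ± 0.69 for Tgfb2 (0.988).

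**Figure D4:**
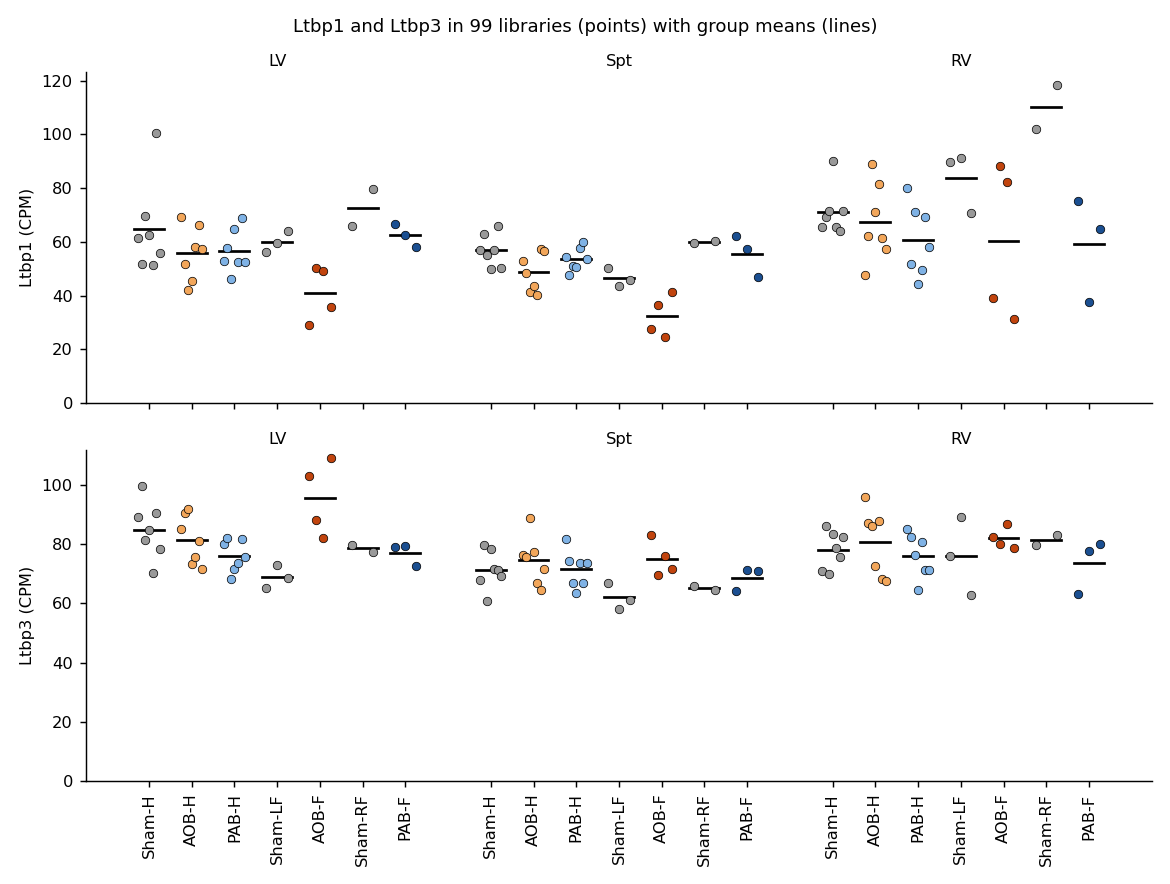
CPM (linear axis) of Ltbp1 and Ltbp3, both carriers of the latent ligand, in each of the 99 libraries, by condition and chamber, with lines for group means. Ltbp1 lies lowest in AOB-F Spt with a mean of 32.5 CPM, whereas Ltbp3 lies highest in AOB-F LV with a mean of 95.7 CPM.

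At the hypertrophy stage, AOB-H and PAB-H were each compared with the same 7 Sham-H rats, so these comparisons are not independent. In edgeR, 0 genes (0%) and 0 members passed in any chamber. In LV, the genes at an unadjusted p under 0.05 numbered 531 of 11703 upon AOB-H and 552 upon PAB-H, in Spt 1851 of 11624 and 516, and in RV 110 of 11734 and 148. DESeq2 passed 13 genes upon AOB-H in Spt, no member among them, and 0 in the other comparisons. Over the 48 values of the 8 members, 6 had an unadjusted p under 0.05. The log2 fold changes lay between -0.14 and 0.03 for Tgfb3, -0.13 and 0.08 for Ltbp4, -0.23 and 0.15 for Tgfb1, -0.16 and 0.06 for Ltbp3, and -0.24 and 0.24 for Fbn1.

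Ltbp2 and Tgfb2 varied most among the AOB-H rats. In Spt, Ltbp2 was 31.2, 18.5, 47.4, 18.6, 10.4, 4.00 and 3.80 CPM in the 7 AOB-H rats, and 3.24 to 8.72 CPM with a median of 5.31 in Sham-H. The upper 5 of 7 lay above every sham and the others within them (1.76 ± 0.48, edgeR adjusted p = 0.187). Tgfb2 was 35.2, 18.7, 40.1, 20.6, 16.4, 11.0 and 13.6 CPM in AOB-H Spt against 10.2 to 14.8 in Sham-H, with the same 5 rats above (0.76 ± 0.23, edgeR adjusted p = 0.204). Without AOB-H replicate 6, both passed, Ltbp2 at 1.93 (edgeR adjusted p = 0.0459) and Tgfb2 at 0.87 (0.0494), among 92 genes. Ltbp1 in AOB-H Spt stood at -0.23 ± 0.10 (edgeR adjusted p = 0.268). The macrophage sum was 158 to 303 CPM in AOB-H Spt against 127 to 185, with 5 of 5 genes higher and 5 under an unadjusted p of 0.05. The cardiomyocyte sum was 47273 to 64308 CPM against 57361 to 74741, with 2 of 5 genes higher and 3 of 5 under that p. The part of both lists was not tested.

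In AOB-H LV, Ltbp2 was 13.5, 11.2, 53.6, 12.8, 9.37, 5.58 and 5.88 CPM against 4.84 to 9.42 with a median of 7.48 in Sham-H. Replicate 3 stood far above the rest, also for Tgfb2, at 43.5 CPM against 12.9 to 21.9 in the other AOB-H rats. The log2 fold change of Ltbp2 was 1.13 ± 0.43 (edgeR adjusted p = 0.956) and fell to 0.41 without replicate 3, and that of Tgfb2 fell from 0.52 ± 0.25 to 0.22. Without the 3 animals of doubtful labels, Ltbp2 was at 1.21 in LV and 1.58 in Spt, and no member passed. In AOB-H RV, the high value of 35.7 CPM belonged to replicate 1, an animal whose LV and RV go against their labels, and without these animals the log2 fold change went from 0.80 ± 0.53 to 0.10. In PAB-H RV, the banded chamber, Ltbp2 was 5.67, 6.94, 3.80, 11.6, 19.5, 5.68 and 6.31 CPM, and Tgfb2 reached 22.8 and 28.3 CPM in replicates 4 and 5. Those same rats had the most Ltbp2, but neither gene passed.

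Whether the effect of AOB in LV grew from H to F was tested as an interaction. In edgeR 0 of 11703 genes (0%) passed and DESeq2 gave 0 as well, while 890 genes had an unadjusted p under 0.05. The interaction, F minus H, was 2.45 ± 0.77 for Ltbp2, 1.42 ± 0.45 for Tgfb2 and 0.56 ± 0.13 for Ltbp3 on the log2 scale, each with an edgeR adjusted p of 0.462. Without AOB-H replicate 3, Ltbp2 passed (3.17, edgeR adjusted p = 0.0383) as 1 of 10 genes. For PAB in RV, edgeR gave 0 of 11734 genes (0%) and DESeq2 0, with 313 genes under an unadjusted p of 0.05, and Ltbp2 was at 2.21 ± 1.08 (edgeR adjusted p = 1).

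Differences between chambers were read in the 12 sham rats, each of which gave all 3 chambers. The fitted log2 difference averages those of Sham-H, Sham-LF and Sham-RF with equal weight. The 2 Sham-RF rats thus count as much as the 7 Sham-H rats. Averaged over the 12 rats instead, RV minus LV was 0.31 for Ltbp1, -0.25 for Ltbp4, -0.28 for Tgfb1 and -0.41 for Fbn1. Between RV and LV, 1498 of 11924 genes or 12.6% passed in edgeR and 3 of 8 members did. Ltbp1 was higher in RV, with a lowest, median and highest value of 64.1, 71.4 and 118 CPM against 51.4, 62.0 and 100.3 in LV. RV exceeded LV in 11 of 12 rats (0.40 ± 0.13, edgeR adjusted p = 0.0317), the exception being Sham-H replicate 6, whose labels are in doubt. Ltbp4 was lower in RV in 12 of 12 rats, at 451, 572 and 685 CPM against 617, 681 and 776 (-0.27 ± 0.08, edgeR adjusted p = 0.0185). Tgfb1 was lower in 11 of 12, at 35.8, 44.0 and 57.8 CPM against 41.7, 53.6 and 73.4 (-0.32 ± 0.11, edgeR adjusted p = 0.0415). Fbn1 was lower in 10 of 12 (-0.47 ± 0.21, edgeR adjusted p = 0.111) and passed once the animal was a block in the fit (adjusted p = 0.0488). Without the doubtful animal among the shams, and the 2 others, Ltbp1 (0.47, edgeR adjusted p = 0.00612), Ltbp4 (-0.26, 0.00986) and Tgfb1 (-0.34, 0.0115) all passed. Leaving out 1 rat at a time, Ltbp4 was lost only without Sham-RF replicate 2 (edgeR adjusted p = 0.23), Ltbp1 was lost in 5 of 12 omissions (Sham-H replicate 4, both Sham-RF, Sham-LF replicates 1 and 2) and Tgfb1 in 8 of 12, with adjusted p up to 0.159 and 0.27.

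Between RV and Spt, 803 genes or 6.73% passed in edgeR, and 3 of 8 members did. RV and LV of each sham rat belong to the same library series, but the Spt library of 9 of the 12 belongs to another, so chamber and series are largely confounded in comparisons with Spt. With series as a term in the fit, Ltbp1 (0.73, edgeR adjusted p = 0.000772) and Ltbp3 (0.22, 0.0378) still passed between RV and Spt, Tgfb3 did not (0.30, 0.0886), and neither did Ltbp3 between Spt and LV (-0.20, 0.0818). In the 3 rats with all chambers in 1 series (Sham-H replicates 5, 6 and 7), RV minus Spt on the log2 scale was 0.20, -0.04 and 0.50 for Ltbp1, 0.13, 0.08 and 0.25 for Ltbp3 and 0.56, -0.20 and 0.46 for Tgfb3. Spt minus LV was 0.03, -0.34 and -0.18 for Ltbp3 in these rats. Replicate 6, with the negative values in RV minus Spt, is the sham rat whose labels are in doubt. Of the members, Ltbp1 had the largest fitted difference between RV and Spt, at 64.1, 71.4 and 118 CPM in RV against 43.4, 56.1 and 66.0 in Spt, and was higher in 11 of 12 rats (0.69 ± 0.13, edgeR adjusted p = 0.000394). It passed in all 12 omissions of 1 rat. Ltbp3 was higher in RV in 12 of 12 rats, at 63.0, 79.2 and 89.2 CPM against 58.0, 67.3 and 79.7 (0.25 ± 0.07, edgeR adjusted p = 0.0107), and passed in 9 of 12 omissions. Tgfb3 was higher in 10 of 12, at 49.3, 70.3 and 81.7 CPM against 39.2, 58.2 and 78.8 (0.30 ± 0.10, edgeR adjusted p = 0.0473), and passed in 4 of 12. All 3 passed without the doubtful animals and with the animal as a block. Averaged over the 12 rats, RV minus Spt was 0.54 for Ltbp1, 0.20 for Ltbp3 and 0.27 for Tgfb3. Between Spt and LV, 304 genes or 2.55% passed in edgeR, and 1 of 8 members did. This was Ltbp3, lower in Spt in 10 of 12 rats (65.1, 79.1 and 99.8 CPM in LV, -0.23 ± 0.07, edgeR adjusted p = 0.0427), which missed the threshold with the animal as a block (0.0527) and without the doubtful animals (0.0644). Tgfb3 was lower in Spt than in LV in 12 of 12 rats, yet did not pass (-0.32 ± 0.10, edgeR adjusted p = 0.0663).

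**Figure D5:**
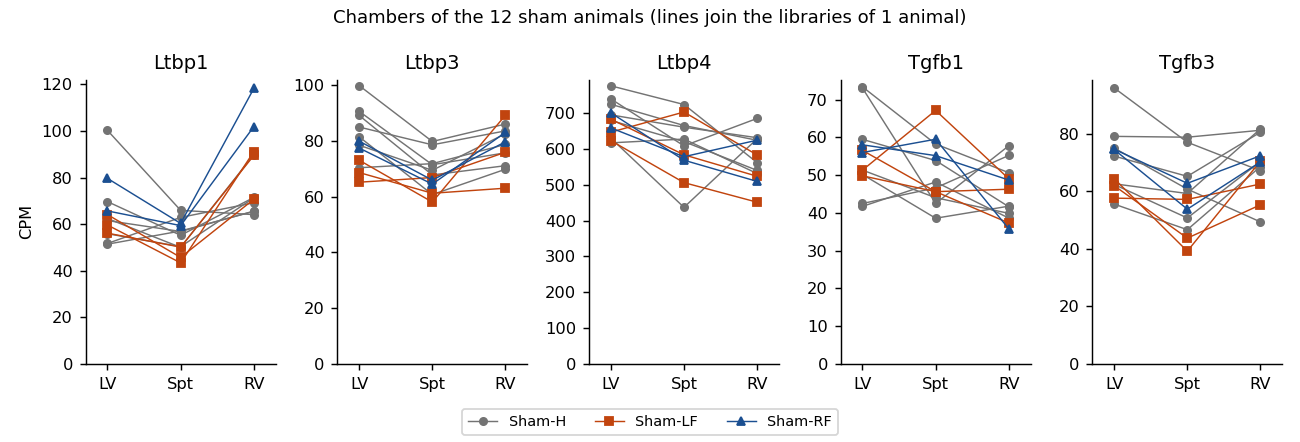
CPM of Ltbp1, Ltbp3, Ltbp4, Tgfb1 and Tgfb3 in LV, Spt and RV of the 12 sham rats, with lines joining the libraries of 1 animal. Ltbp1 rises from Spt to RV in 11 of 12 rats and Ltbp4 falls from LV to RV in 12 of 12.

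Age was read from the 5 older against the 7 young shams, with Sham-LF and Sham-RF averaged at equal weight. In each chamber the older shams lay in the same library series and the young ones did not, so age and series are partly confounded. In edgeR, 0 members passed in any chamber, against 0.0171% of genes in LV (2 genes, 818 at an unadjusted p under 0.05, 18 in DESeq2), 0.103% in Spt (12, 1953 and 175) and 0.0852% in RV (10, 1294 and 29), with no member in DESeq2 either. In Spt, 3 members had an unadjusted p under 0.05, Tgfb3 at -0.27 ± 0.12 (edgeR adjusted p = 0.256), Ltbp3 at -0.17 ± 0.08 (0.269) and Fbn1 at -0.53 ± 0.24 (0.271). In RV this was so for Ltbp1 at 0.44 ± 0.21 (edgeR adjusted p = 0.444) and in LV for Ltbp3 at -0.21 ± 0.08 (0.574). Without Sham-H replicate 5, whose Spt library had the least Fbn1, Fbn1 in Spt passed at -0.68 (edgeR adjusted p = 0.0457), among 573 genes. In LV and RV, 0 members passed in any of 12 omissions of 1 library, that of Sham-H replicate 6, with doubtful labels, included.

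The likeness of the members was described by Pearson's r of log2 CPM over the 99 libraries after the means of each chamber and library series were removed. These libraries share animals and groups, so the values are descriptions with no test. Ltbp2 and Tgfb2 ran together at r = 0.89, and Ltbp1 ran against both at -0.69. Ltbp2 and Ltbp3 stood at 0.62, and the ligands Tgfb2 and Tgfb3 at -0.19. Genes of the whole table most like Ltbp2 were Thbs4 (0.94), a matricellular thrombospondin, Postn (0.93) and Fcrl2 (0.93), and those most like Tgfb2 were Prss23 (0.94), a secreted serine protease, Akip1 (0.94) and Bex1 (0.92). For Tgfb1 they were Tnfrsf1a, a TNF receptor, Elk3 and Sh3bgrl3 (0.85 each). Tgfb3 was most like the matrix proteins Dpt (0.83), Ccdc80 (0.76) and Olfml1 (0.76). For Ltbp1 the leading genes were Ddit4l2 (0.85), Ppp1r1a (0.85), a protein phosphatase inhibitor, and the microfibril protein Mfap2 (0.84). Ltbp3 was most like Nbl1 (0.82), Lrp1 (0.81), an endocytic receptor, and Ptgis (0.80), the prostacyclin synthase. Ltbp4 stood nearest to Clstn1 (0.78), Cyth3 (0.78) and Os9 (0.77), and Fbn1 to the laminin chain Lamc1 (0.89), Fstl1 (0.84) and Adcy7 (0.83).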

How the data were processed

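Polyadenylated RNA of LV, Spt and RV from 33 rats was sequenced as single-end reads. Per the study's methods, the authors ran the nf-core RNA-seq pipeline (Trim Galore, then STAR against Rnor6.0 with UCSC annotation), and featureCounts with multiple overlaps disabled gave counts per gene. The strand setting is not given in the sources used here. The deposited counts are raw whole numbers. The deposited normalized counts are a signal, the counts divided by a DESeq2 size factor per library, and were not used for tests. The deposited FPKM values divide by transcript length and served only to compare genes. Every column belonged to a sample (0 did not), and replicates are separate animals. Totals were 12.1 to 24.2 M, and 2218 of 17337 genes had no count.

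Samples were grouped by their labels. The tissue field of RV samples names the left ventricle, against their title and source name, which were followed here. Counts were tested with edgeR 4.0.16 in R 4.3.3 by the quasi-likelihood test, with TMM normalization and filterByExpr, in 1 fit of the 33 libraries of a chamber with 7 conditions, and for chambers and their interactions in 1 fit of all 99 libraries. Called means a Benjamini-Hochberg adjusted p under 0.05 over all genes tested, and ± after a log2 fold change is its SE. CPM use TMM library sizes, with a prior count of 0.5 for logs. The fit was checked on simulated data with known changes and a common spread for all genes, so the check does not reach genes as variable as Ltbp2. Tables were made with pandas 2.3.3 and numpy 2.4.6. Alternatives were DESeq2 1.42.0, its size factors, no filter, a library series term, within-series values, the 2 groups alone, all 99 libraries in 1 fit, leaving out single animals or the 3 doubtful ones, and blocks. Chambers come from the same animals, so the animal block pairs them by design. The text names all 8 members, the 3 genes most like each, and for pathway lists the genes with the lowest p in AOB-F LV. Members and lists were chosen with earlier results of these data known. Promoter sequences are from RefSeq on GRCr8.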

Additional observations from a re-analysis of the deposited data

Results flagged for a closer look

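Of 96 groups of a member, condition and chamber with 4 to 10 libraries, 8 held 1 library that stood apart from the rest by more than Dixon's 95% criterion, where chance gives about 1 in 20. Ltbp2 in AOB-H replicate 3 was 53.6 CPM in LV, with the next library at 13.5, and Tgfb2 in the same library was 43.5 CPM, with the next at 21.9. Ltbp2 in AOB-H RV replicate 1, an animal whose LV and RV go against their labels, was 35.7 CPM, with the next at 11.6. Ltbp1 in Sham-H LV replicate 6, likewise in doubt, was 100.3 CPM, with the next at 69.7. Ltbp1 in Sham-H RV replicate 4 was 89.9 CPM, with the next at 71.5. Tgfb1 in PAB-H LV replicate 1 was 59.6 CPM, with the next at 48.3. In the Spt of Sham-H replicate 5 both Ltbp4 (437 CPM, the next 608) and Fbn1 (19.1 CPM, the next 52.7) were low. What set these libraries apart was not tested.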

How the results depend on the processing

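Of 3328 recomputed log2 fold changes, 3216 stayed on their side of the threshold and turned sign, if at all, by less than the SE, 68 lost and 15 gained a call, and 29 that passed neither way turned sign by more than the SE. Sign changes of any size numbered 182, in 71 results, and none was of a value that passed. In AOB-F LV, 0 of the 3 calls were left with the 2 groups alone and 0 with the replicate block. In AOB-F Spt, where 1 member passed, DESeq2 gave 3, the library series term 0, the 2 groups alone 0, the replicate block 2 and all 99 libraries in 1 fit 0. In PAB-F Spt the 2 groups alone gave 1 call, among 792 of 11154 genes, and the replicate block 3, among 1545 of 11154. Over all genes, the count of calls went from 98 to 245 in AOB-F LV and from 27 to 147 in AOB-F Spt with DESeq2, from 0 to 792 in PAB-F Spt with the 2 groups alone, and from 1498 to 280 for RV against LV without Sham-RF replicate 1. Without the filter, RV against LV and RV against Spt had 2 members each in place of 3. For Spt against LV, the call of Ltbp3 went to 0 without the filter, without the doubtful animals, with the animal as replicate block and, an alternative chosen after seeing the data, with library series as a term, which left 2 of 3 members for RV against Spt and changed no other count between chambers. The block cannot be read as a pairing outside the chamber comparisons, since same-numbered rats did not deviate together in every pair of any comparison (r from -0.01 to 0.09 in AOB-F LV). With the animal as replicate block RV against LV had 4 calls in place of 3. Beside the counts given here, a block changed no count of members called.

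Leaving out 1 animal at a time gave 0 to 3 members in AOB-F LV, 0 to 3 in AOB-F Spt, 0 to 2 in AOB-H Spt, 0 to 1 in the AOB interaction with stage in LV, 0 to 1 for older shams in Spt, 0 to 3 for RV against LV, 0 to 2 for Spt against LV and 1 to 3 for RV against Spt. By more than the SE, it turned the direction of 3 small differences, namely Tgfb3 in AOB-F Spt (-0.10 to 0.18), Ltbp3 in AOB-F RV (0.00 to 0.26) and Ltbp4 in PAB-F RV (-0.28 to 0.02).

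The other sign changes by more than the SE came within a single library series, at the H stage, where few animals remain and no value passed. In AOB-H LV they were Ltbp1 at 0.10 in series 1, Tgfb1 at 0.09, Tgfb3 at 0.11, Ltbp3 at 0.02 and Ltbp4 at 0.09 in series 2, and Tgfb2 at -0.30 and Ltbp2 at -0.39 in series 3. In PAB-H LV they were Tgfb3 at 0.10 in series 2 and Tgfb1 at 0.02 and Ltbp4 at 0.01 in series 3. In PAB-H Spt they were Tgfb1 at 0.02, Ltbp2 at 0.59 and Fbn1 at 0.60 in series 2 and Ltbp4 at -0.09 in series 3. In AOB-H RV they were Tgfb1 at 0.09 and Fbn1 at 0.64 in series 1 and Tgfb2 at -0.06, Ltbp2 at -0.83, Ltbp3 at -0.22 and Ltbp4 at -0.31 in series 3. In PAB-H RV they were Tgfb2 at -0.07, Tgfb3 at 0.05, Ltbp3 at 0.08 and Ltbp4 at 0.14 in series 1 and Tgfb2 at -0.09 and Ltbp2 at -0.24 in series 3. The cause was not tested. The failure stage has 2 to 4 animals per group, and the lowest count of a member in a library was 37.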
